A study of Dugesia japonica with 18 samples.

Results

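Head fragments of the planarian Dugesia japonica were followed while they regrew a body, and their late days were compared with their early days. The comparison used the 6 head libraries of the series: days 5, 7 and 10 formed the late side and days 0, 1 and 3 the early side. They are 6 of 18 libraries, the other 12 being trunk and tail fragments on the same days. Unigenes, which are assembled transcripts grouped by locus, entered the test when they reached 1 CPM (a count divided by its library's total and put on a common library size) in at least 3 of the 6 head libraries. This left 21347 of 267235 unigenes, of which 7990 carried a usable protein name. The libraries measured polyA-enriched RNA, and the series title names the RNA base m6A and the body axis as its subject.

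No head, trunk or tail group received a treatment or genetic change according to the labels, and animal age is not given there. Each library was 1 pool cut from 10 to 20 animals, and each fragment and day had 1 library. The 3 days of a side therefore stood in for repeats, so that p-values rest on the spread between days, which mixes time with library noise. How long after cutting the day 0 heads were taken is not given. Because these are bulk samples, fewer cells of a type and less RNA per cell cannot be told apart.

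Planarians rebuild missing parts from pluripotent stem cells called neoblasts and by re-patterning the tissue that remains. A head fragment lacks the pharynx, which is the feeding tube in the middle of the body, as well as the trunk glands around it and the tail, and it keeps its brain and eyes. Wnt ligands made in the posterior and Wnt inhibitors made in the anterior tell planarian cells where along the body they lie.

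The head libraries held between 17850101 and 21229980 counts. Levels are given as scaled CPM (CPM after TMM scaling, a correction for RNA composition), and a count of 3, used as the detection floor, was worth 0.106 to 0.144 of it in head. The day 1 head library stood apart: its most abundant unigene held 12.98% of counts, against 26.2 to 32.2% in the other 5, and its TMM factor was 1.20, against 0.928 to 1.04. On the first principal component, with 32.4% of the variance, the head libraries lay at -36.6, -55.4, 4.36, 19.1, 30.9 and 37.6 from day 0 to day 10, so day 3 was closer to the late days than to days 0 and 1. The head label was checked against marker genes at day 0. The eye gene rhabdomeric opsin stood at 132 scaled CPM in head, 0.0520 in trunk and 0 counts in tail, and the tail Hox gene DjAbd-Ba at 0.538 in head, 9.79 in trunk and 60.6 in tail.

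Between early and late days, transcripts of the posterior factor Sp5, of other transcription factors and of a potassium channel rose in head fragments, and those of opsin and of an intermediate filament protein fell. In edgeR's quasi-likelihood test with Benjamini-Hochberg adjustment at 0.05, 18 unigenes were higher late, which is 0.0843% of those tested, and 8 were lower, which is 0.0375%. Of the 18, 15 stood at 1 scaled CPM or more in trunk at day 0, which is near the 84.4% of all tested unigenes that did so. In tail at day 0 only 5 of the 18 did, where the share over all tested unigenes was also 84.4%. In 10 of the 18 the trunk level at day 0 lay above all late head days, beside 38.5% of all tested unigenes. A protein name was available for 7 of the 18 and for 5 of the 8. All 26 had late and early head days that did not overlap. Risers below 1 CPM on all early head days passed the filter only through their late days, so for them the filter fixed this order.

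The count of calls rests on few libraries. Without head day 0 the test called 3 higher and 0 lower (1723 at an unadjusted p under 0.05), without day 1 it called 3 and 3, without day 5 it called 14 and 8 (11 of the 26 among them), without day 7 it called 2 and 0 (1404 unadjusted), without day 10 it called 3 and 0 (1780 unadjusted), and without day 3 it called 58 and 115. Of the 26 unigenes, 2 kept their call in all 6 of these fits. They are TRINITY_DN169202_c0_g1 and TRINITY_DN13000_c0_g1, and neither has a protein name.

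**Figure D1:**
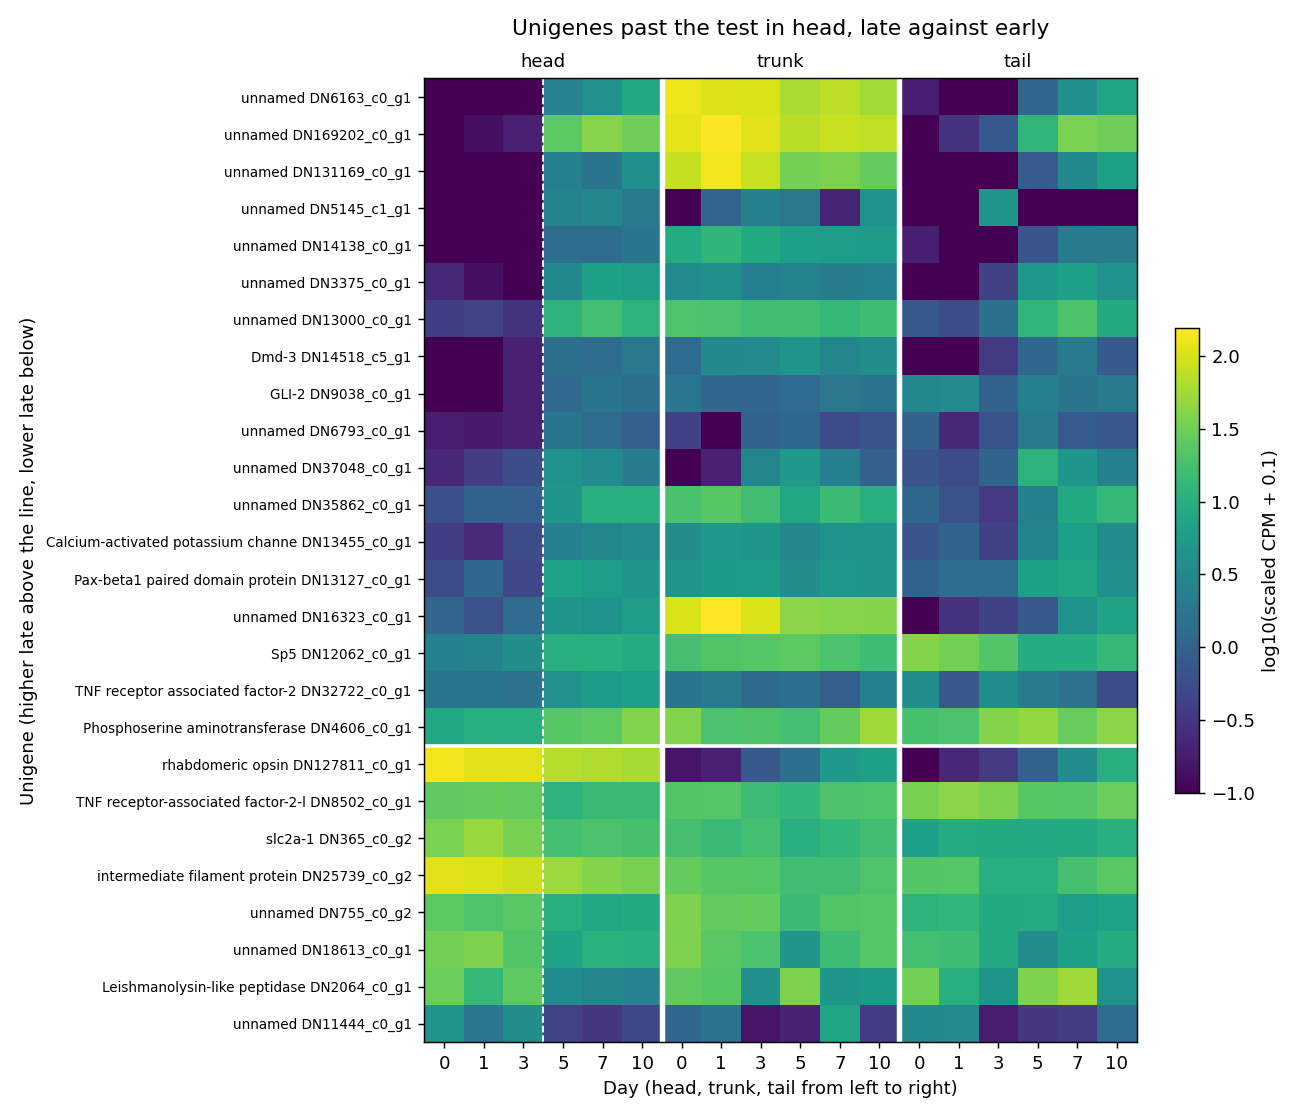
Levels of the 26 unigenes past the test, as log10(scaled CPM + 0.1), in the 18 libraries by fragment and day; the dashed line parts early from late head days. The 18 unigenes above the horizontal line are darker on head days 0 to 3 than on days 5 to 10, and 5 of them stand at 1 scaled CPM or more in tail at day 0.

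Sp5, a zinc-finger transcription factor that acts downstream of Wnt signalling, was the posterior patterning gene that passed the test. Its head levels (TRINITY_DN12062_c0_g1) were 2.40, 2.60 and 3.70 scaled CPM on days 0, 1 and 3 and 10.3, 10.5 and 9.23 on days 5, 7 and 10. All 3 late days lay above all 3 early days, with the step between days 3 and 5. It rose by 1.79 ± 0.21 on the log2 scale (SE, n = 3 days a side, edgeR adjusted p = 0.0263). Leaving out 1 head library moved this adjusted p between 0.0166 and 0.158.

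In trunk Sp5 ran from 15.8 to 24.4 scaled CPM, and in tail it started at 39.6 and stood at 9.36 on day 5. The head change was higher than the trunk change by 1.80 ± 0.32 (SE, edgeR interaction test, adjusted p = 0.0301) and higher than the tail change by 3.31 ± 0.32 (adjusted p = 1.1e-04). From day 5 on, the head and tail levels of Sp5 lay within one range, from 9.23 to 13.2 scaled CPM.

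Most other unigenes of the posterior list had a positive head fold change, but besides Sp5 none passed the test of late against early head days. In the posterior list (Wnt, Hox, Teashirt, Sp5 and Frizzled-4 unigenes matched by name), 17 of 22 unigenes passed the filter. Of these, 1 passed the test higher late and 0 lower, and the fold change was above 0 in 14. Late days lay wholly above early days in 7 and wholly below in 2, where 9.00% and 8.73% of all tested unigenes did so. The median log2 fold change of the list was 0.93, beside -0.00 (to 2 decimals) over all tested unigenes. Members were matched by name, and not all were higher in tail than in head. At day 0 the Frizzled-4 unigenes TRINITY_DN5255_c0_g1 and TRINITY_DN11236_c0_g1 stood at 25.7 and 8.15 scaled CPM in head, against 5.41 and 2.03 in tail. The first is among the 2 wholly below and the second among the 7 wholly above. The counts and the median therefore describe the list as matched.

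The Wnt ligand wnt11-5, which planarians make in a gradient from the tail, stood at 4.80, 4.01 and 9.27 scaled CPM on the early head days and at 19.0, 21.0 and 15.5 on the late ones. The days did not overlap, and day 3 was already above days 0 and 1. The log2 fold change was 1.63 ± 0.30 (SE, edgeR adjusted p = 0.119). In tail the same unigene (TRINITY_DN4149_c0_g1) started at 82.3 and stood at 33.0 on day 10. The head change was higher than the tail change by 2.28 ± 0.39 (edgeR interaction test, adjusted p = 0.0120). The second protein description of this unigene is Wnt-4, so that the name wnt11-5 is uncertain.

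The ligand wnt11-1 (TRINITY_DN4986_c0_g1) was at 0.290, 0 and 1.30 scaled CPM early and at 2.91, 4.13 and 2.80 late, with a head log2 fold change of 2.70 ± 0.94 (edgeR adjusted p = 0.393). It was low on all head days beside the 46.2 of tail at day 0. A further Wnt11-type unigene, wnt11-2 (TRINITY_DN26781_c0_g1), did not pass the filter. Its head counts were 1, 6 and 6 early and 12, 14 and 28 late.

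DjAbd-Ba (TRINITY_DN2826_c0_g2), a Hox gene of the Abdominal-B type, went from 0.538, 1.06 and 1.39 scaled CPM on the early days to 2.20, 4.39 and 5.60 on the late ones. Each successive head day was higher than the one before. The log2 fold change was 2.03 ± 0.43 (edgeR adjusted p = 0.149), and the head change exceeded that of tail by 3.83 ± 0.53 (edgeR interaction test, adjusted p = 0.00693).

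Its relative php-3 (TRINITY_DN7825_c0_g2) overlapped between sides, at 3.56, 1.72 and 4.28 early and 3.93, 7.11 and 8.08 late (log2 fold change 1.01 ± 0.37, edgeR adjusted p = 0.394). DjAbd-Bb (TRINITY_DN6043_c0_g1) held a narrow range of 7.78 to 9.71 scaled CPM over all 6 head days. Teashirt, a zinc-finger gene of the planarian posterior, stood at 19.7, 14.8 and 24.4 early and at 24.5, 33.8 and 29.9 late. It is named here after its values were seen.

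Other Wnt unigenes of the posterior list had a Wnt-4-type protein match, as the unigene named wnt11-5 did. The unigene named wntP-3 (TRINITY_DN25612_c0_g1) went from 0.668 to 1.63 scaled CPM early to 2.32 to 3.51 late (log2 fold change 1.27 ± 0.37, edgeR adjusted p = 0.289). The unigene named WNT (TRINITY_DN15386_c0_g1) overlapped, at 8.28 to 14.7 early and 14.4 to 18.2 late.

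The gene named wnt-1 in the table ran the other way. In planarians wnt1 is switched on at wounds within hours and later marks the posterior tip. In head it (TRINITY_DN10261_c1_g1) was at 3.10, 8.41 and 4.66 scaled CPM on days 0, 1 and 3 and at 1.81, 2.15 and 1.62 on days 5, 7 and 10. Day 1 was highest, and the sides did not overlap (log2 fold change -1.54 ± 0.36, edgeR adjusted p = 0.184). The second protein description of this unigene is Wnt-11b-2, so that its name is uncertain.

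**Figure D2:**
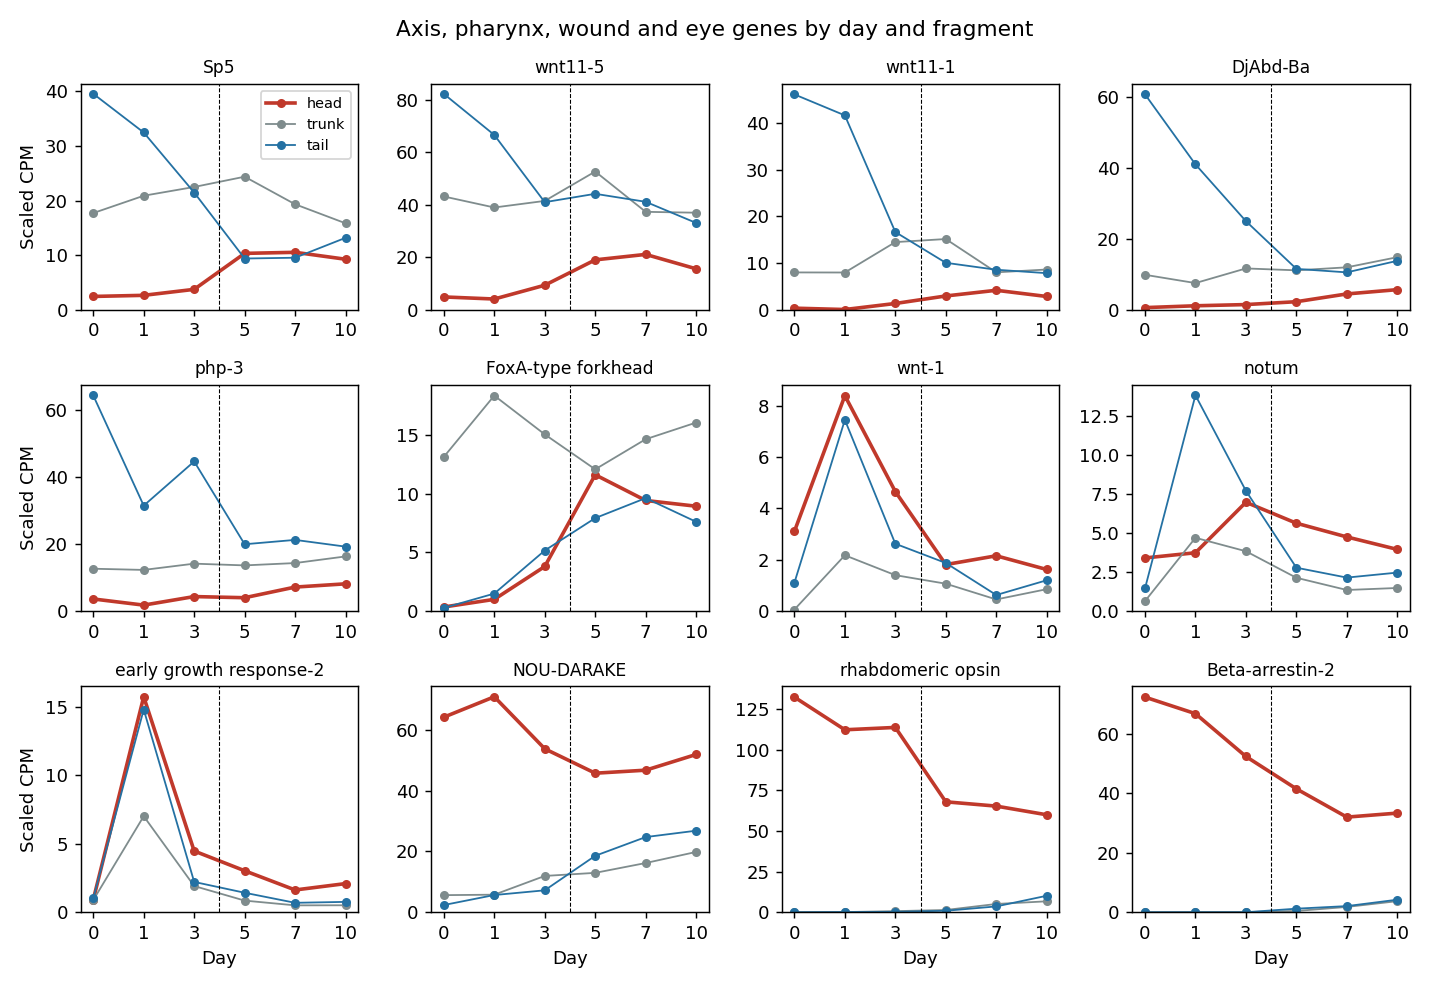
Scaled CPM of 12 genes by day in head (red), trunk (grey) and tail (blue), each panel with its own linear axis from 0; the dashed line parts early from late days. In head, Sp5 moves from 2.40 to 9.23 between days 0 and 10 while rhabdomeric opsin moves from 132 to 59.97, and early growth response-2 peaks at 15.7 on day 1.

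None of the 18 anterior list members that passed the filter (of 19) passed the test, and the median log2 fold change was -0.03. Late days lay wholly below early days in 3 and above in 0. That is 16.7% and 0%, beside 8.73% and 9.00% of all tested unigenes. NOU-DARAKE (TRINITY_DN5112_c1_g1), an FGF-receptor-like protein that keeps brain tissue inside the planarian head, was at 64.2, 70.9 and 53.8 scaled CPM early and at 45.7, 46.7 and 51.9 late. The sides did not overlap, though days 3 and 10 lay close together (log2 fold change -0.39 ± 0.13, edgeR adjusted p = 0.371).

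In tail NOU-DARAKE went from 2.37 at day 0 to 26.8 at day 10, and the head change was lower than the tail change by 2.61 ± 0.44 on the log2 scale (edgeR interaction test, adjusted p = 0.0114). The paralog nou-darake like-2 (TRINITY_DN3128_c0_g1) overlapped in head, at 37.5 to 63.4 early and 48.0 to 50.4 late, and its head change was lower than that of tail by 3.36 ± 0.72 (adjusted p = 0.0369).

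Among Wnt inhibitors, secreted frizzled-related protein A (TRINITY_DN146043_c0_g1) was at 12.7, 15.0 and 4.56 scaled CPM early and 3.58, 5.31 and 5.20 late, with day 3 inside the late range (log2 fold change -1.20 ± 0.41, edgeR adjusted p = 0.373). Protein B (TRINITY_DN4865_c1_g2) was at 25.6, 18.3 and 16.5 early and 14.2, 15.4 and 13.01 late, without overlap (log2 fold change -0.50 ± 0.18, edgeR adjusted p = 0.385). Secreted frizzled related protein 3 (TRINITY_DN16957_c0_g1) lay between 14.3 and 18.6 on all days.

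Notum, a secreted enzyme that inactivates Wnt proteins and marks the anterior tip, overlapped between sides, with its head maximum of 6.97 scaled CPM on day 3 (log2 fold change 0.03 ± 0.30, edgeR adjusted p = 0.980). The anterior Wnt-2-type ligand (TRINITY_DN14604_c0_g1) ran from 17.9 to 24.3 over the head days, and Wnt5a (TRINITY_DN8726_c0_g1), which planarians make along the body edge, from 5.52 to 11.6. Neither passed the test.

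Of the eye genes, opsin fell in head. Rhabdomeric opsin (TRINITY_DN127811_c0_g1), the light-sensing protein of planarian photoreceptors, was at 132, 112 and 114 scaled CPM on the early days and at 67.9, 65.3 and 59.97 on the late ones. Every late day lay below every early day, with the step between days 3 and 5. It fell by 0.89 ± 0.12 on the log2 scale (SE, n = 3 days a side, edgeR adjusted p = 0.0421), with an adjusted p of 0.0374 to 0.287 when 1 head library was left out.

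Over the same days opsin appeared in the other fragments, reaching 6.72 in trunk and 10.1 in tail on day 10. The head change was lower than the tail change by 6.15 ± 1.31 (edgeR interaction test, adjusted p = 0.0368), and the difference from trunk did not pass (adjusted p = 0.137). The early tail libraries held 0 to 0.246 scaled CPM of opsin, near the floor, so the size of this difference depends on how values near 0 are treated in the fit.

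Beta-arrestin-2 (TRINITY_DN15526_c0_g1), of the family that shuts off activated opsin, was at 72.4, 66.8 and 52.4 early and at 41.5, 32.0 and 33.4 late. The sides did not overlap (log2 fold change -0.84 ± 0.16, edgeR adjusted p = 0.116). The other 3 beta-arrestin unigenes overlapped, with log2 fold changes of -0.05, -0.11 and -0.22.

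Not all eye genes lay lower late. Of 19 eye list members that passed the filter (of 27), 0 passed the test higher and 1 lower. Late days lay wholly above early days in 3 and wholly below in 3. That is 15.8% each, beside 9.00% and 8.73% of all tested unigenes. DjPax-6, a transcription factor of eye and brain, was at 9.85, 10.2 and 12.3 scaled CPM early and at 14.7, 15.1 and 17.03 late. The eye determination genes sine oculis-1/2 and eyes absent also had late days above early days, at 3.42 to 4.06 against 1.34 to 3.12 and at 9.46 to 10.5 against 6.91 to 9.42. These 3 genes are named after their values were seen, and their edgeR adjusted p-values were 0.269, 0.404 and 0.515.

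Transcripts abundant in trunk and absent or nearly so from head at day 0 were detected in head on later days. DjFoxA (TRINITY_DN5469_c2_g1), a forkhead factor of the planarian pharynx and its progenitors, went through 0.331, 0.985 and 3.80 scaled CPM on days 0, 1 and 3 to 11.6, 9.44 and 8.95 on days 5, 7 and 10. It was 13.2 in trunk and 0.254 in tail at day 0, and the late head days lay below the trunk range of 12.1 to 18.4. Tail rose as well, through 1.48 and 5.16 on days 1 and 3 to 7.93, 9.64 and 7.62 on days 5, 7 and 10. The difference between the head and tail changes did not pass (edgeR interaction test, adjusted p = 0.883). The head days did not overlap, but the early ones differed widely among themselves. The head log2 fold change of 2.59 ± 0.72 did not pass the test (edgeR adjusted p = 0.323).

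To describe this more broadly, unigenes with at least 5 scaled CPM in all 6 trunk libraries and at most 3 counts in head at day 0 were collected. This rule was chosen after values were seen, so its counts are a description with no test. It also picks unigenes for low head counts at day 0, so part of any later increase is built in. No matching share is given for all unigenes that were low in head at day 0. The rule gave 60 unigenes, 12 of them named. More than 3 counts were found for 9 of the 60 in head at day 1, 7 at day 3, 33 at day 5, 48 at day 7 and 59 at day 10. Day 10 was the highest head day for 58.

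The levels stayed far below those of trunk. The median unigene of the 60 stood at 0.313% of its same-day trunk level in head on day 5, at 1.71% on day 7 and at 8.46% on day 10. The tail fragments held 7, 10, 17, 29, 53 and 59 of the 60 above 3 counts from day 0 to day 10, with a median of 13.1% of trunk on day 10. Only 10 of the 60 passed the head filter, which asks for 1 CPM in 3 libraries. Of these, 4 passed the test higher late, beside 0.0843% of all tested unigenes. The 2 shares are not alike, because the set was chosen for low head counts at day 0. With at least 20 scaled CPM in all trunk libraries, 30 unigenes remained, of which 20, 26 and 30 were above 3 counts in head on days 5, 7 and 10.

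**Figure D3:**
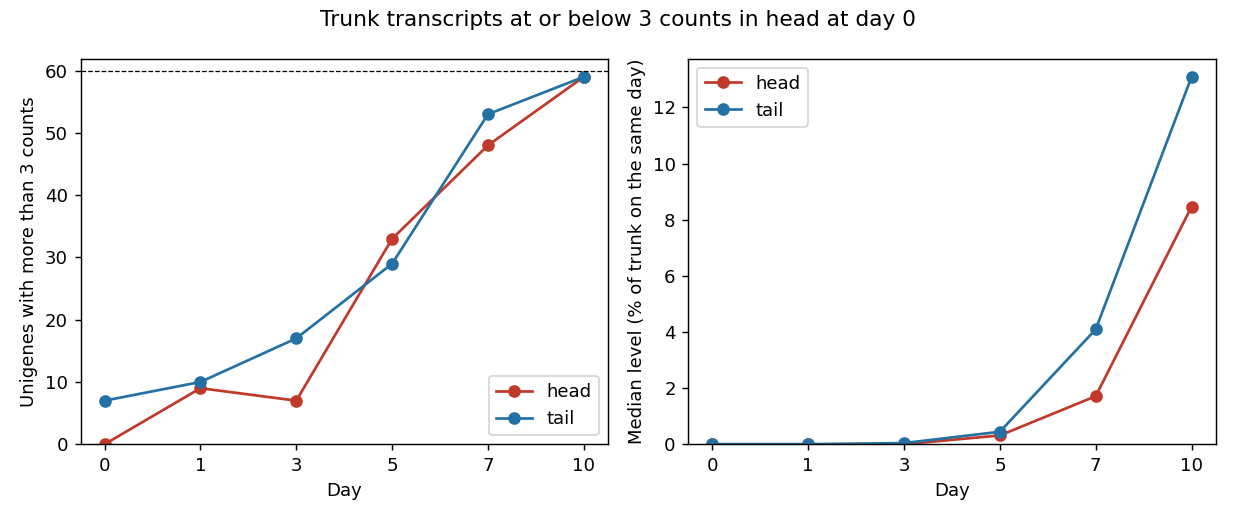
Left, number of the 60 trunk unigenes with more than 3 counts in head and tail by day (dashed line, all 60; head starts at 0 by the way the set was chosen); right, their median level as a percent of trunk on the same day. The head count moves from 7 on day 3 to 33 on day 5 and 59 on day 10, and the median head level reaches 8.46% of trunk.

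The named members included astacin proteases, lectins and a matrix metalloproteinase. The set held mmp1, a matrix metalloproteinase, with 0, 0 and 0 head counts on days 0, 1 and 3 and 11, 35 and 80 on days 5, 7 and 10, beside 47.3 to 85.2 scaled CPM in trunk. Its lectin 1 unigene (TRINITY_DN2607_c0_g1) gave 3, 6 and 1 head counts early and 4, 53 and 256 late, so that it first passed 6 counts on day 7. The astacin-type protease Ast2 (TRINITY_DN926_c0_g1) was at 0.0828, 0.317 and 0.0480 scaled CPM early and 1.53, 2.90 and 4.10 late, just short of the threshold (log2 fold change 4.12 ± 0.62, edgeR adjusted p = 0.0579). Its head change was higher than the trunk change by 5.14 ± 0.74 (edgeR interaction test, adjusted p = 0.0112), and these 3 genes are named after their values were seen.

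The list of secreted proteases and lectins split in direction. Of 16 members past the filter (of 28), late days lay wholly above early days in 4 and wholly below in 7. That is 25% and 43.8%, beside 9.00% and 8.73% of all tested unigenes. None passed the test, and the median log2 fold change was -0.42 (-0.69 without head day 5 and -0.29 without head day 10). Ast2, Ast4, Ast6 and an Ast8 unigene made up the 4 above. Ast6 (TRINITY_DN131044_c0_g1) went from at most 0.207 scaled CPM early to 1.89, 5.31 and 9.94 late, beside 681 in trunk at day 0 (edgeR adjusted p = 0.0601). The 7 below were 6 lectin unigenes and an astacin-like metalloprotease. The C-type lectin TRINITY_DN35750_c0_g1 was at 36.2, 49.5 and 28.5 early and 22.6, 13.6 and 8.0035 late, beside 1.04 in trunk at day 0 (edgeR adjusted p = 0.313).

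The named unigenes that rose the most were transcription factors, a channel and a signalling adapter. Pax-beta1 (TRINITY_DN13127_c0_g1), a paired-domain transcription factor, was at 0.455, 1.06 and 0.384 scaled CPM early and at 7.04, 6.02 and 4.73 late, against 3.56 to 5.53 in trunk. It rose by 3.18 ± 0.38 on the log2 scale (edgeR adjusted p = 0.0263), more than in trunk by 3.36 ± 0.44 (edgeR interaction test, adjusted p = 0.00181). Tail rose as well, by 2.36 ± 0.34, and the difference between head and tail did not pass (edgeR interaction test, adjusted p = 0.623). The calcium-activated potassium channel slo-1 (TRINITY_DN13455_c0_g1), which damps electrical activity in nerve and muscle, was at 0.290, 0.141 and 0.432 early and 2.40, 2.81 and 3.51 late. It rose by 3.36 ± 0.42 (adjusted p = 0.0323), also more than in trunk (difference 3.58 ± 0.54, adjusted p = 0.0104). The tail rise of slo-1 was 2.68 ± 0.41, and its difference from head did not pass (edgeR interaction test, adjusted p = 0.787).

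GLI-2 (TRINITY_DN9038_c0_g1), a zinc-finger factor of the family that carries Hedgehog signals, had 0, 0 and 2 head counts early and 29, 37 and 36 late. The ratio of scaled counts was 50.9 (95% exact counting interval 13.7 to 426), and the rise passed the test (edgeR adjusted p = 0.0443). It was present at 0.901 to 3.41 scaled CPM in tail on all days, and its head change was higher than those of trunk and tail (edgeR interaction test, adjusted p = 0.0301 and 0.00869). Dmd-3 (TRINITY_DN14518_c5_g1), a DM-domain transcription factor, had 0, 0 and 2 counts early and 36, 29 and 44 late, a ratio of 54.4 (14.7 to 455, edgeR adjusted p = 0.0421). In trunk it ran from 1.20 to 4.57 scaled CPM, and its difference from trunk did not pass (edgeR interaction test, adjusted p = 0.0745). Both GLI-2 and Dmd-3 passed the filter only through their late head days.

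TNF receptor associated factor-2 (TRINITY_DN32722_c0_g1), an adapter of TNF receptor signalling, rose from 1.66, 1.65 and 1.54 scaled CPM to 4.09, 5.66 and 6.23 (log2 fold change 1.72 ± 0.24, edgeR adjusted p = 0.0421). Phosphoserine aminotransferase (TRINITY_DN4606_c0_g1), an enzyme of serine synthesis, rose from 7.95, 10.7 and 9.90 to 23.1, 24.8 and 39.03 (1.61 ± 0.22, edgeR adjusted p = 0.0421). It was seventh by size among the named risers, outside the rule for named genes. For neither gene did the head change differ from trunk or tail past the threshold.

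Of the risers, 11 had no protein name, among them the largest ratio. TRINITY_DN169202_c0_g1 had 0, 1 and 2 head counts early and 624, 923 and 811 late, which is 24.5, 40.5 and 32.0 scaled CPM beside 71.7 to 148 in trunk. The ratio was 784 (95% exact counting interval 268 to 3806, edgeR adjusted p = 4.39e-05), and tail went the same way, from 0 at day 0 to 35.3 on day 7. TRINITY_DN13000_c0_g1 was at 0.290, 0.352 and 0.192 early and 11.6, 17.4 and 11.6 late, against 13.2 to 20.8 in trunk (log2 fold change 5.55 ± 0.31, edgeR adjusted p = 1.36e-04).

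For 4 of the unnamed risers, all early head libraries were at 0 counts. They passed the filter only through the 3 late libraries, so that late days above early days was fixed by the filter. Against a floor of 3 counts over the 3 early libraries together, their late levels were at least 34.9-fold, 59.9-fold, 64.9-fold and 119-fold higher. The last, TRINITY_DN6163_c0_g1, reached 63, 93 and 201 counts on days 5, 7 and 10 and was at 56.6 to 128 scaled CPM in trunk. By comparison, TRINITY_DN5145_c1_g1, with 66, 67 and 47 late head counts, was also uneven elsewhere: it had counts in tail on day 3 and on no other tail day.

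The largest fall was that of the unnamed TRINITY_DN11444_c0_g1, from 108, 48 and 76 counts early to 9, 5 and 10 late (log2 fold change -3.31 ± 0.46, edgeR adjusted p = 0.0421). Leishmanolysin-like peptidase (TRINITY_DN2064_c0_g1), a metallopeptidase, fell the most among the named unigenes. It was at 29.6, 13.2 and 24.8 scaled CPM early and 3.50, 2.85 and 2.52 late in head (log2 fold change -2.93 ± 0.31, edgeR adjusted p = 0.0234). In trunk it ran between 3.93 and 36.5 and in tail between 4.22 and 54.0, high and low on both sides of day 5. The intermediate filament protein (TRINITY_DN25739_c0_g2), a structural protein of epidermal and other cells, fell from 111, 103 and 89.9 to 52.3, 39.5 and 34.9 (log2 fold change -1.26 ± 0.17, edgeR adjusted p = 0.0421). Another unigene of that name (TRINITY_DN25739_c0_g3) overlapped, at 266, 218 and 251 early and 145, 255 and 272 late. Its log2 fold change was -0.13 ± 0.22 (edgeR adjusted p = 0.859).

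The sugar transporter slc2a-1 (TRINITY_DN365_c0_g2) fell from 36.0, 49.8 and 34.7 to 17.4, 19.5 and 18.4 (log2 fold change -1.13 ± 0.16, edgeR adjusted p = 0.0443), and its head change was lower than that of tail by 1.35 ± 0.28 (adjusted p = 0.0209). TNF receptor-associated factor-2-like protein B (TRINITY_DN8502_c0_g1) fell from 25.6, 27.4 and 26.4 to 11.6, 14.4 and 14.8 (log2 fold change -0.96 ± 0.14, edgeR adjusted p = 0.0467). Near-identical copies can share reads, and the several TNF receptor-associated factor unigenes of this assembly make single members uncertain.

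Early growth response-2 (TRINITY_DN4276_c0_g1), an immediate early transcription factor of the wound response, was highest on day 1. It stood at 0.911 scaled CPM on day 0, 15.7 on day 1 and 4.47 on day 3, and then at 3.03, 1.62 and 2.09. The day 1 value is from the library that stood apart, and trunk and tail were highest on day 1 too, at 7.01 and 14.8. Late against early did not pass (log2 fold change -1.65 ± 0.96, edgeR adjusted p = 0.60). Of 117 wound-induced list members past the filter (of 156), 0 passed higher and 1 lower, and the median log2 fold change was -0.01. In 14 members late days lay wholly above early days, and in 14 wholly below. That is 11.97% each, beside 9.00% and 8.73% of all tested unigenes.

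Stem cell and cell cycle genes did not pass the test singly. DjPiwiA (TRINITY_DN2453_c0_g1), a neoblast marker, was at 63.9, 148 and 90.5 scaled CPM early and 194, 124 and 137 late, with overlap (log2 fold change 0.59 ± 0.31, edgeR adjusted p = 0.553). DjPiwiB (TRINITY_DN3080_c0_g1) ran from 171 to 343 and DjPiwiC (TRINITY_DN643_c0_g1) from 138 to 192 with overlap, as did the other 2 Piwi unigenes that passed the filter, of 33 in the table.

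Both PCNA unigenes (TRINITY_DN17885_c0_g1 and TRINITY_DN23406_c0_g1), for the DNA replication clamp, were at 18.9 to 35.6 and 3.68 to 6.51 early and at 29.3 to 42.8 and 5.76 to 10.8 late, and both were highest on day 5. In the DNA replication and mitosis list, 49 members (of 90) passed the filter. Late days lay wholly above early days in 15 (30.6%, beside 9.00% of all tested unigenes) and wholly below in 0. The median log2 fold change was 0.32. Members included MCM5, a part of the replicative helicase (11.1, 10.3 and 11.7 early, 15.3, 15.2 and 13.1 late), and a CDC20 homolog, an activator of mitotic exit (0.993, 2.46 and 2.79 early, 7.51, 10.0 and 9.07 late, edgeR adjusted p = 0.0711). With library totals in place of TMM the count was 5, near the 5.97% of all unigenes above under that scaling, and without the most abundant unigene it was 18, beside 13.2% of all. Without head day 5 the list's median was 0.20.

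Cytosolic ribosome and splicing unigenes more often had late days above early days than below. Late days lay wholly above early days in 19 of 38 ribosomal unigenes (50%) and in 17 of 66 splicing unigenes (25.8%), beside 9.00% of all tested. Late days lay wholly below in 0 and 2, and the medians were 0.12 and 0.10. These counts moved with the scaling: with library totals they were 8 and 3, beside 5.97% of all unigenes, and the medians were 0.06 and 0.03. Without head day 1 the ribosome median was 0.07. For 40S ribosomal protein S3 the early days were 917, 920 and 1099 scaled CPM and the late days 1315, 1289 and 1296 (log2 fold change 0.41 ± 0.13, edgeR adjusted p = 0.329).

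Genes of motile cilia, intestine, lysosome and protonephridia, the planarian excretory tubules, lay lower late in larger shares than all unigenes, with no single member past the test. Late days lay wholly below early days in 33 of 93 cilia members, 12 of 49 intestine members, 16 of 56 lysosome members and 9 of 25 protonephridia members, with medians of -0.27, -0.36, -0.17 and -0.24. The shares were 35.5%, 24.5%, 28.6% and 36%, beside 8.73% of all tested unigenes. Dynein axonemal heavy chain 5 (TRINITY_DN7650_c0_g1), a motor of beating cilia, was at 77.4, 71.7 and 75.3 early and 47.5, 52.8 and 54.7 late (edgeR adjusted p = 0.148). With library totals the counts below were 36, 7, 8 and 7, beside 8.45% of all unigenes, and without the most abundant unigene 20, 8, 10 and 8, beside 5.78% of all. The cilia median was -0.12 without day 5. The cilia list was lowest on day 5 and rose again after it. Its median log2 ratio to day 0 was 0.04 and -0.02 on days 1 and 3. It was -0.58, -0.18 and -0.06 on days 5, 7 and 10. Its summed levels were 4454, 4540 and 4526 scaled CPM early and 2856, 3922 and 4301 late.

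The gut protease cathepsin L2 (TRINITY_DN60241_c0_g1) was lower on each successive day, at 837, 519, 255, 209, 108 and 97.2 scaled CPM (edgeR adjusted p = 0.290). A cathepsin L1 unigene (TRINITY_DN59224_c0_g1) had its 3 late days above its early days, at 1.66, 9.99, 32.9, 56.5, 45.6 and 57.5 (edgeR adjusted p = 0.553). Without head day 1 the intestine and lysosome medians were -0.21 and -0.06. Whether that library sets these medians was not tested further.

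**Figure D4:**
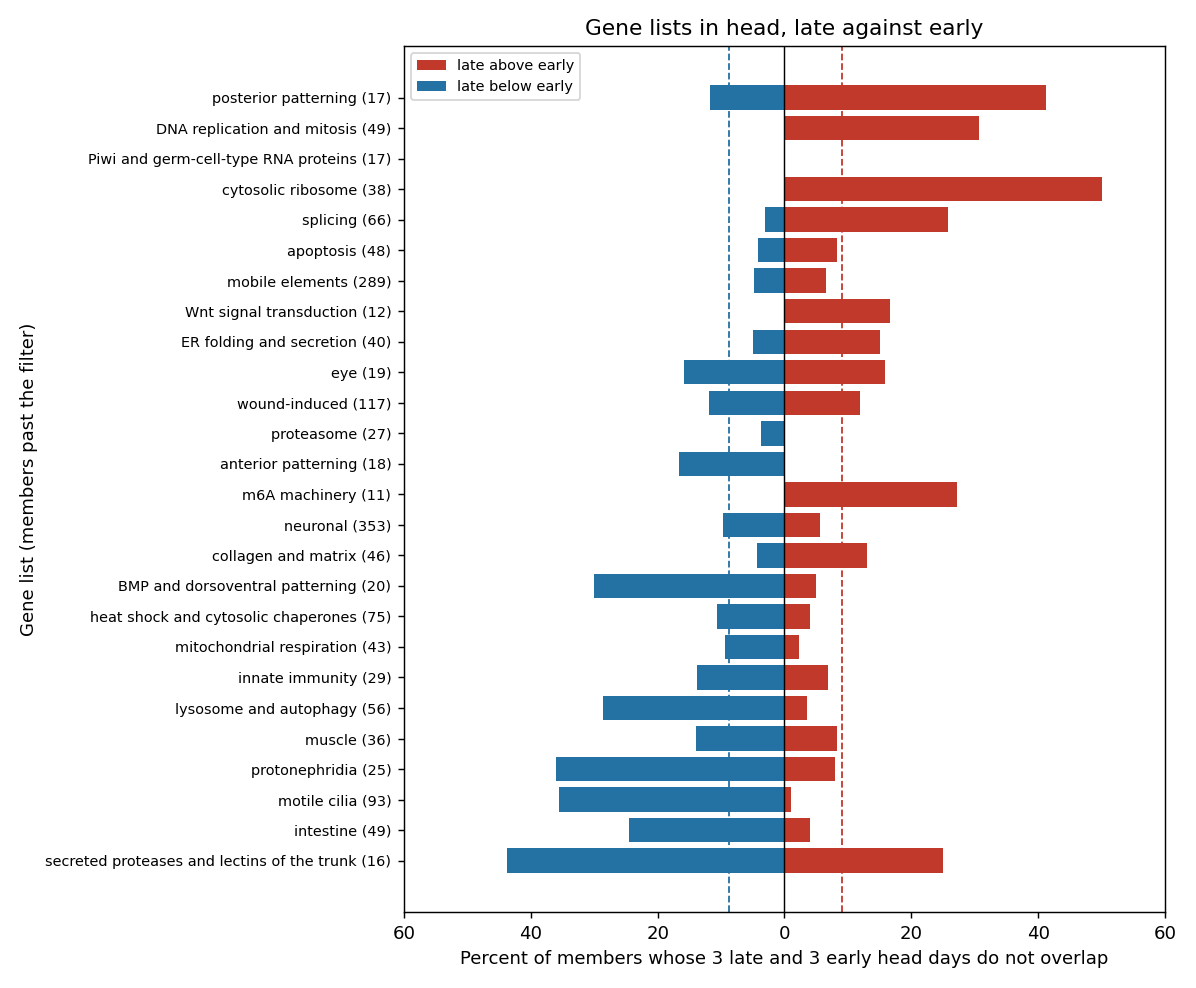
Percent of each list's members past the filter whose 3 late head days lie wholly above (red) or wholly below (blue) the 3 early ones, for lists of at least 10 members, ordered by median log2 fold change; dashed lines give the same over all tested unigenes, 9.00% above and 8.73% below. Cytosolic ribosome and posterior patterning reach furthest above, secreted proteases and lectins, protonephridia and motile cilia furthest below.

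Neuronal genes made the largest list, with 353 members past the filter. The channel slo-1 passed the test higher late, and 0 passed lower. Late days lay wholly above in 20 and wholly below in 34. That is 5.67% and 9.63%, beside 9.00% and 8.73% of all tested unigenes. METTL3 (TRINITY_DN30538_c0_g1), the catalytic subunit of the enzyme that writes m6A, was at 9.40, 7.10 and 9.56 scaled CPM early and 11.99, 9.88 and 10.4 late (log2 fold change 0.31 ± 0.18, edgeR adjusted p = 0.566). Of the 11 m6A list members past the filter, 0 passed the test. Late days lay wholly above early days in 3 (27.3%, beside 9.00% of all tested unigenes) and wholly below in 0. The median log2 fold change of the m6A list was -0.03. With library totals 2 lay above and 2 below, which is 18.2% each, beside 5.97% and 8.45% of all unigenes. For the remaining lists, which cover Wnt signal transduction, BMP, muscle, collagen, Piwi and other germ-cell-type proteins, mitochondrial respiration, heat shock, secretion, proteasome, apoptosis, innate immunity, intermediate filaments and mobile elements, 0 passed higher and 1 lower, the intermediate filament protein. Of the BMP and dorsoventral list, late days lay wholly below early days in 6 of 20 members and above in 1. The share below was 30%, beside 8.73% of all tested unigenes. With library totals 3 lay below, beside 8.45% of all unigenes. The list members given as examples for secreted proteins, replication, ribosome, cilia and intestine, and the transcription factor and metalloproteinase named next, were chosen after their values were seen. Over the 31 unigenes named whatever their test, 1 passed, the opsin.

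Tests of whether head changed differently from the other fragments share the head libraries, so their results are given side by side. Against trunk, 21 unigenes differed (edgeR interaction test, 0.0984% of those tested), 20 of them with the higher change in head, and 11 of the 18 head risers were among them. Forkhead box C1 (TRINITY_DN23278_c0_g1), a transcription factor, was another, at 0, 0.317 and 0.576 scaled CPM on early head days and 2.87, 4.13 and 3.63 late against 3.22 to 4.94 in trunk (adjusted p = 0.0318). The matrix metalloproteinase mmp2 (TRINITY_DN67421_c0_g2) went from 5.70 to 8.503 early to 12.8 to 15.5 late in head, and from 120 to 128 early to 75.1 to 94.7 late in trunk (adjusted p = 0.0266).

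Against tail, 277 unigenes differed (1.30%), 2 of the 18 head risers among them. Late tail days lay wholly above early tail days in 12 of these 18 risers. The share of all tested unigenes that did so in tail is not given, so this count has no background beside it. In 242 of the 277 the head change was the lower. In 241 of those 242 the fitted tail change was positive, and in 153 the fitted head change was negative. Of the 17 posterior list members past the filter, 7 had the higher change in head and 1 the lower. Of the 18 anterior list members past it, 6 had the lower and 0 the higher. Over all 21347 tested unigenes, 35 had the higher change in head and 242 the lower. The posterior list member with the lower change was the Frizzled-4 unigene TRINITY_DN5255_c0_g1. With day as a replicate block, which pairs the fragments by labelled day, 222 unigenes differed from trunk and 617 from tail. Leaving out 1 head library gave 6 to 58 for trunk and 90 to 257 for tail, with 6 without head day 0 or day 1 and 90 without day 7.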

How the data were processed

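The tools FastQC, fastp 0.20.0, Bowtie2 and RSEM are named for the reads of these pooled planarian fragments, per the submitters' processing notes. The values used are raw read counts, as the authors deposited them with protein database descriptions; all are whole numbers, although RSEM estimates need not be. A further 18 per-sample columns (logCPM) were not used, and 3 lines were empty. Strand and the assembly method are not given in the sources used here.

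Late and early head days were compared with edgeR 4.0.16 (limma 3.58.1, R 4.3.3): TMM, robust quasi-likelihood fit, Benjamini-Hochberg at 0.05, 4 residual degrees of freedom. Interactions used all 18 libraries in 6 groups (12 degrees). Scaled CPM divides counts by the TMM library size; 1 constant (1.28) sets head beside trunk and tail. Errors are SE. Intervals (95%) and floors cover counting error only. Same-day libraries share a labelled day; whether they share animals is not given, and their deviations from group means correlated at 0.0104 to 0.237 between head and trunk and at 0.0782 to 0.354 between head and tail.

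The members, the 28 lists and the tests were chosen with earlier results of these data known. Named genes were up to 6 highest and up to 6 lowest called unigenes with a name and no overlap, up to 2 called members per list and direction, and a set given whatever its test. List members were matched by protein name. In simulated counts over 21347 unigenes, the head test found 68 of 100 2-fold and 97 of 100 4-fold changes, with 22 false calls. The false calls were a larger share of the simulated calls than the 0.05 threshold. The changed unigenes were drawn only from those with a mean of at least 5 scaled CPM over the head libraries. The rates therefore do not cover lower unigenes, among them GLI-2, Dmd-3 and slo-1, and no separate rate is given for those near 1 scaled CPM. Alternatives included DESeq2 1.42.0. Tables and figures used Python 3.11.15, numpy 2.4.6, pandas 2.3.3, scipy 1.17.1 and matplotlib 3.10.9.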

Additional observations from a re-analysis of the deposited data

Results flagged for a closer look

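Between fragments, the change from early to late days differed for these unigenes in the interaction test across 18 libraries (edgeR, Benjamini-Hochberg adjusted p under 0.05). Each value is the head log2 change minus that of the other fragment. Where libraries hold no count of a unigene, its size depends on how zeros are treated and only the direction should be read.

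Against trunk, head was higher for Sp5 by 1.80, for Pax-beta1 by 3.36, for slo-1 by 3.58 and for GLI-2 by 5.07. The unnamed risers were higher by 3.98 for TRINITY_DN16323_c0_g1, 4.27 for TRINITY_DN35862_c0_g1, 5.81 for TRINITY_DN13000_c0_g1, 6.85 for TRINITY_DN3375_c0_g1, 8.499 for TRINITY_DN14138_c0_g1, 10.07 for TRINITY_DN169202_c0_g1 and 10.32 for TRINITY_DN6163_c0_g1. Trunk held all of these from day 0.

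Against tail, head was higher for posterior genes, by 3.31 for Sp5, 2.28 for wnt11-5, 4.70 for wnt11-1, 3.83 for DjAbd-Ba and 2.21 for php-3, and by 5.63 for GLI-2. The difference was negative for anterior and eye genes, at -1.20 for secreted frizzled-related protein B, -2.61 for NOU-DARAKE, -3.36 for nou-darake like-2, -6.15 for rhabdomeric opsin and -9.48 for Beta-arrestin-2, and at -1.35 for slc2a-1. These tests share the head libraries and are not independent of each other.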

How the results depend on the processing

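Counts of unigenes past the threshold moved strongly with the method, and the signs of the 26 called unigenes were kept in every alternative in which each was tested. Against 18 higher and 8 lower late, library totals without the most abundant unigene gave 18 and 4, the DESeq2 Wald test 122 and 237, no filter 326 and 458, a filter at 5 CPM 5 and 2, all 18 libraries in 1 fit 31 and 40, and a slope over log2(day + 1) 18 and 36. 14 of the 26 were among the calls with all 18 libraries, 2 of the 26 among those of the slope and 11 of the 26 among those without day 5. Leaving out 1 head library gave 2 to 58 higher and 0 to 115 lower, with 0 lower by edgeR without day 0, 7 or 10 (1723, 1404 and 1780 at an unadjusted p under 0.05). The difference from trunk, 21 unigenes, became 222 with day as a replicate block and 184 with DESeq2, and 6 to 58 with 1 head library left out; that from tail, 277, became 617, 560 and 90 to 257. The causes were not tested.

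No called unigene changed sign, but some uncalled genes near no change did. With library totals the log2 fold change was -0.035 for WNT TRINITY_DN14604_c0_g1, -0.011 for notum and -0.0065 for DjPiwiC. Without the most abundant unigene it was 0.012 for Beta-arrestin-1 and 0.057 for DjPiwiB, and 0.025 for DjPiwiB at 5 CPM. With all 18 libraries it was -0.0045 for that WNT and -0.0042 for notum, and the slope was -4.94e-04 for secreted frizzled related protein 3 TRINITY_DN16957_c0_g1. With 1 head library left out the values ran from -0.069 to 0.15 for that WNT, -0.16 to 0.42 for notum, -0.018 to 0.16 for secreted frizzled related protein 3, -0.28 to 0.087 for nou-darake like-2, -0.14 to 0.013 for Beta-arrestin-1, -0.29 to 0.043 for arr-1, -0.18 to 0.38 for DjPiwiB and -0.015 to 0.23 for DjPiwiC. Across scalings the median of all tested unigenes lay between -0.08 and 0.06. With 1 library a day, time and library cannot be told apart, and the filter leaves out unigenes that appear only on late days at low levels.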
